A study of Mus musculus with 24 samples.

Results

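Liver messenger RNA of mice fed an olive oil-enriched diet (OO) was compared with that of mice fed chow. The 12 libraries, 6 OO and 6 chow, were taken by their labels from the 23 libraries of the count table, and all genes of the table entered the analysis. All were from wild-type males of C57BL/6, an inbred strain of laboratory mice, after 6 weeks on the diet. The mice of the other libraries ate a cottonseed oil diet (CSO, 6 libraries) or a safflower oil diet (SFO, 5 libraries). The study's description counts the oil diets among high-fat diets, so the comparison with chow does not separate olive oil from the rest of the diet. Whole-liver RNA was sequenced with QuantSeq, a method that reads a short stretch near the 3′ end of each transcript. No label says whether the libraries of a diet come from separate animals, so the spread behind each p-value may be technical.

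The liver makes fatty acids and cholesterol from acetyl-CoA, packs them into lipoproteins and turns cholesterol into bile acids. The transcription factors SREBP-1 (gene Srebf1) and SREBP-2 switch on the enzymes of fatty acid and cholesterol synthesis when they are released from the endoplasmic reticulum, and polyunsaturated fatty acids of the diet are known to hold SREBP-1 down. Olive oil consists mainly of oleic acid, a monounsaturated fatty acid. Hepatocytes also hold the cytochrome P450, glutathione transferase and carboxylesterase enzymes that clear foreign compounds, many of them switched on through the receptors PXR and CAR.

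Upstream sequences of 3 enzymes of lipid synthesis that rose on the OO diet are shown, because SREBP and the factor NF-Y bind next to each other in promoters of this kind. Each is the 250 bases before the RefSeq transcription start in GRCm38.p6, read 5′ to 3′ on the gene's strand. Capitals mark matches to the sterol regulatory element TCACNCCAC or to the CCAAT box CCAAT, on either strand, so that ATTGG is a CCAAT box on the other strand. The counts were made on mm39, another build, and no position was carried over.
Hmgcs1, chr13:119690101-119690350, plus strand: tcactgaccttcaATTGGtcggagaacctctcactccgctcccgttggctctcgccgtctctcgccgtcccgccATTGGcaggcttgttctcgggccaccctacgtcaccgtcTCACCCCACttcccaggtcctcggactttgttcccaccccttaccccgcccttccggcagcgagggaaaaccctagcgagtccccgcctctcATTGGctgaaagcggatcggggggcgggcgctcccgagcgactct
Fasn, chr11:120824548-120824797, minus strand: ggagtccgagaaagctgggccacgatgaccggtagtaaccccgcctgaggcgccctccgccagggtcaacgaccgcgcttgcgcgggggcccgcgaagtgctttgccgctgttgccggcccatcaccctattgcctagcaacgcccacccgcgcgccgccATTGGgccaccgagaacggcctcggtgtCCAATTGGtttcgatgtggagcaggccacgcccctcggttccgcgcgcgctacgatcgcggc
Elovl5, chr9:77917115-77917364, plus strand: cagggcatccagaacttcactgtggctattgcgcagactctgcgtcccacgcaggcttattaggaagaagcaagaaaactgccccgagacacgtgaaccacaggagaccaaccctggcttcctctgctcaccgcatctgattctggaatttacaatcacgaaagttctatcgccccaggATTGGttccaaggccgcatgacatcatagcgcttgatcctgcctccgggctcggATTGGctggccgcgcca
The Hmgcs1 window held 1 sterol regulatory element and 3 CCAAT boxes, the Fasn window 3 CCAAT boxes, of which 2 overlap on opposite strands, and the Elovl5 window 2. Over the 32851 promoter windows of the table, 1.05% held the sterol regulatory element and 33.8% a CCAAT box. Of the 13 genes of fatty acid, polyunsaturated fatty acid and cholesterol synthesis that rose, 10 had a promoter entry, of which 1 held the element and 6 a CCAAT box. Fads1, Fdps and Sqle had no entry. A match is a description of the letters only.

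Totals of the 12 libraries ran from 6.25e+06 to 1.49e+07 counts, and the OO livers yielded transcripts of fewer genes. At an equal depth of 5e+06 counts, 10930 ± 408 genes were detected in OO livers and 11962 ± 90.0 in chow livers (SD, n = 6 each), with no overlap. This difference of -1032 genes was known when the comparison was chosen and is given without a test. There were 162 genes detected in at least 5 chow libraries and at most 1 OO library, against 3 genes the other way round. The 50 most abundant genes took 35.7% ± 0.832 of the counts in OO libraries and 34.9% ± 1.53 in chow libraries (exact two-sided permutation p = 0.299). Among OO libraries, OO 3 was far from the rest, with a first principal component score of 166, where OO 2 came next at 23.7, and it had the lowest number of detected genes (10289). OO 2 lay apart on the second component, at -135, where the other OO libraries had scores between -12.7 and 40.2. Among chow libraries, transcripts of skeletal muscle were abundant in chow 3, chow 4 and chow 5. The summed level of 36 muscle genes was 38.6, 61.6 and 81.8 CPM (counts over the scaled total of the library; lowest, median and highest library) in OO livers, against 36.1, 808 and 5971 CPM in chow livers. Acta1, the actin of skeletal muscle, was between 0.316 and 4.75 CPM in OO livers, against 453, 893 and 185 CPM in chow 3, chow 4 and chow 5 and 2.42 to 27.3 CPM in the other chow livers. Both groups carried the marker genes of hepatocytes, whose summed level was 146826 to 197295 CPM in OO livers and 121683 to 154430 CPM in chow livers.

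**Figure D1:**
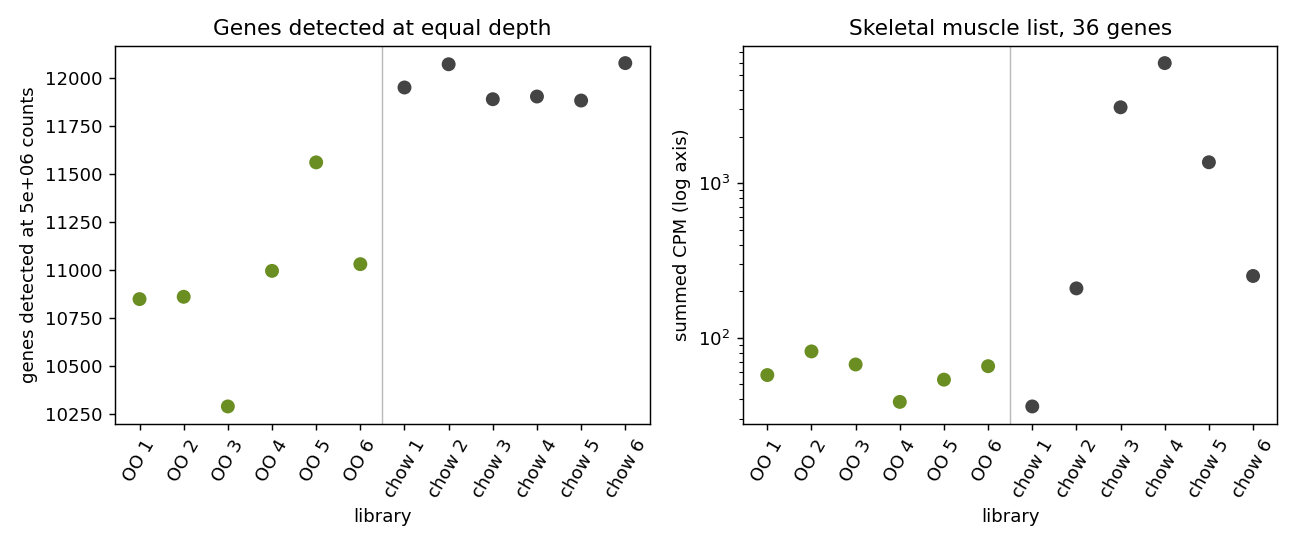
Genes detected after thinning to 5e+06 counts (left) and summed CPM of 36 skeletal muscle genes on a log axis (right), 1 point per library, OO in green and chow in grey. The 6 OO libraries lie between 10289 and 11560 detected genes, below the 6 chow libraries, and chow 3, chow 4 and chow 5 have the highest muscle levels.

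Of 10419 genes tested, 122 (1.17%) changed at an adjusted p under 0.05, of which 91 (0.873%) were higher and 31 (0.298%) lower in OO livers. Without the factor that corrects for library composition the split was 31 higher and 53 lower, with a mean factor of 0.941 in OO and 1.07 in chow libraries, and the median log2 fold change of all genes moved by -0.18. The direction of all 122 genes stayed the same under library totals. Of the calls, 46 higher and 12 lower were among the 502 genes whose log2 CPM averaged 8 or more. Another 1 higher and 5 lower were among the 1906 whose log2 CPM averaged under 2. Counts of calls in the gene lists below were not tested against the share of calls among genes of similar level. Without chow 3, chow 4 and chow 5, a set chosen once their muscle transcripts were known, 8 genes were still called. These were Apoa4, Elovl5, Hmgcs1 and Fn1, which were higher, and Cyp3a11, Csad, Ces2a and Gstm1, which were lower. In that smaller set all 122 genes had the same direction, with a median ratio of the log2 fold changes of 1.0 and a median ratio of the standard errors of 1.34. Both this set and the library totals reuse libraries on which the genes were called, so the shared direction is not a separate test. Among the genes with the lowest ratios were Tpm2 (0.248), Pdk4 (0.28), Slc25a4 (0.491) and Ttn (0.622), the last a muscle gene of the list. Leaving out a single library gave 65 (without chow 5) to 200 (without OO 5) calls, and 53 of the 122 genes were called in each of those 12 fits. The count was 76 without chow 2 and likewise without chow 4.

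**Figure D2:**
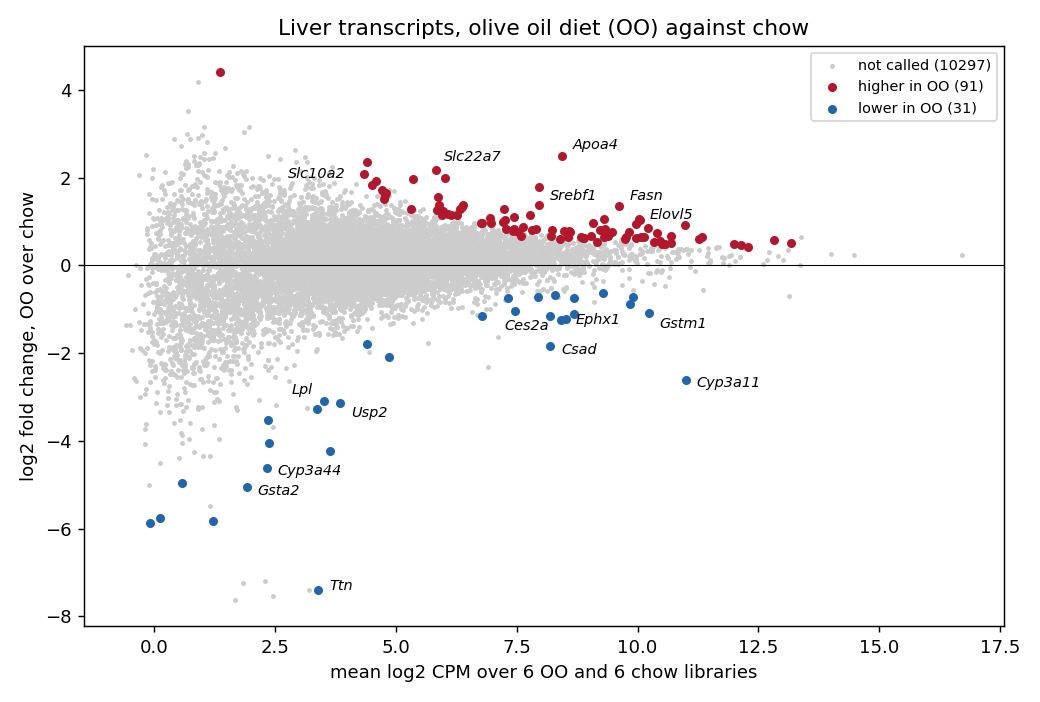
Log2 fold change of OO over chow against mean log2 CPM for the 10419 tested genes. Genes higher in OO (red, 91) and lower in OO (blue, 31) are marked. Among marked genes whose mean log2 CPM was 5 or more, Apoa4 had the largest rise and Cyp3a11 the largest fall.

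Of 17 measured genes of fatty acid synthesis 4 rose in OO livers and none fell. A positive log2 fold change was seen in 16, and the median was 0.60, against 0.09 over all genes. Of all 10419 tested genes 5908 had a positive log2 fold change and 4511 a negative one. Under library totals the median of all genes was -0.09. Srebf1 had 269.8, 437 and 551 CPM in OO livers (lowest, median and highest of 6 libraries, as in all triplets below), against 90.9, 169 and 190.2 CPM in chow livers. The lowest OO liver was above every chow liver, and the log2 fold change was 1.37 ± 0.20 (SE; adjusted p = 0.00034). Fasn, fatty acid synthase, had 763, 1067 and 2719 CPM in OO livers, against 302, 556 and 616 CPM in chow livers. The groups did not overlap, OO 5 was the highest, and the log2 fold change was 1.36 ± 0.26 (adjusted p = 0.0132). Acly, which makes the acetyl-CoA used for synthesis, had 385, 463 and 813 CPM in OO livers, against 266, 280.2 and 371 CPM in chow livers. It rose by 0.77 ± 0.17 on the log2 scale (adjusted p = 0.0149), with no overlap, and was not called without chow 5 (adjusted p = 0.053). Mid1ip1, a partner of acetyl-CoA carboxylase, rose by 1.27 ± 0.30 (adjusted p = 0.0296) and was called in 6 of 12 fits that leave out a library. Under library totals 1 of the 17 genes was called. Scd1, which makes oleic acid from stearic acid, had 6849, 14094 and 19251 CPM in OO livers, against 7470.0, 8512 and 10363 CPM in chow livers. Here the groups overlapped, OO 1 having the lowest level of all 12, and the log2 fold change of 0.65 ± 0.17 missed the threshold (adjusted p = 0.0726).

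Of 12 measured genes that desaturate and lengthen polyunsaturated fatty acids, 4 rose and none fell, and the median log2 fold change was 0.82. Elovl5, an elongase, had 1289, 1539 and 1618 CPM in OO livers, against 579, 700.0 and 939 CPM in chow livers. The 6 OO livers lay above the 6 chow livers, and the log2 fold change was 1.05 ± 0.12 (adjusted p = 9.31e-06). Fads2, the desaturase of the first step, had 1371, 1435 and 2180.0 CPM in OO livers, against 504, 729.5 and 1088 CPM in chow livers. Its groups did not overlap either, and the log2 fold change was 1.04 ± 0.15 (adjusted p = 0.000398). Fads1, the desaturase of a later step, had 1075, 1397 and 1709 CPM in OO livers, against 568, 691 and 979.7 CPM in chow livers, a log2 fold change of 0.93 ± 0.14 (adjusted p = 0.000416). Elovl2, a second elongase, had 1413, 1582 and 1979 CPM in OO livers, against 736, 815 and 1323 CPM in chow livers, a log2 fold change of 0.85 ± 0.13 (adjusted p = 0.000637). Both genes were higher in every OO liver than in any chow liver. The 4 genes were called in all 12 fits that leave out a library, and 4 were also called under library totals.

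All 26 measured genes of cholesterol synthesis and uptake had a positive log2 fold change, against 5908 of all 10419 tested genes. The median of the list was 0.53, and 5 of the 26 rose. Hmgcs1, whose upstream sequence holds the sterol regulatory element, encodes the cytosolic synthase of hydroxymethylglutaryl-CoA. It had 670.4, 899 and 1319.6 CPM in OO livers, against 299, 450.3 and 551 CPM in chow livers. The groups were apart, and the log2 fold change was 1.06 ± 0.16 (adjusted p = 0.000561). Sc5d, a desaturase of a late step, had 787, 914 and 1110.0 CPM in OO livers, against 467, 548 and 617 CPM in chow livers. It rose by 0.77 ± 0.12 on the log2 scale (adjusted p = 0.00092), again with no overlap. Lss, lanosterol synthase, rose by 1.37 ± 0.31 (adjusted p = 0.0246), with OO 2 at 221 CPM far above the other OO livers, and Fdps, farnesyl diphosphate synthase, by 0.84 ± 0.19 (adjusted p = 0.0252). Sqle, squalene epoxidase, rose by 0.97 ± 0.24 (adjusted p = 0.0425). These 3 were called in 6, 7 and 3 of the 12 fits that leave out a library, and 2 of the 26 genes were called under library totals. Insig1 and Insig2, which hold the SREBPs in the endoplasmic reticulum, were not called, with log2 fold changes of 0.10 ± 0.17 (adjusted p = 0.881) and 0.62 ± 0.20 (adjusted p = 0.141).

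Apoa4, an apolipoprotein of triglyceride-rich particles, had the largest rise among called genes with a mean log2 CPM above 2. It had 502, 688 and 1573 CPM in OO livers, against 123, 150.0 and 201 CPM in chow livers. Every OO liver was above every chow liver, with OO 2 and OO 3 highest, and the log2 fold change was 2.49 ± 0.25 (adjusted p = 3.57e-06). Of 28 measured genes of lipoproteins and their handling, 3 rose and 1 fell, with a median log2 fold change of 0.23. Apoa1, the main protein of high-density lipoprotein, had 9992, 10636 and 13178 CPM in OO livers, against 6560.2, 7887 and 8877 CPM in chow livers, a log2 fold change of 0.50 ± 0.09 (adjusted p = 0.0042). Abca1, which loads cholesterol onto that lipoprotein, had 277, 377 and 436 CPM in OO livers, against 185, 242 and 266 CPM in chow livers, a log2 fold change of 0.66 ± 0.15 (adjusted p = 0.0252). Neither gene overlapped between the diets, and Abca1 was called in 8 of 12 fits that leave out a library. Lpl, lipoprotein lipase, which muscle and fat make in quantity, fell. It had 0.463, 4.74 and 10.3 CPM in OO livers, against 9.81, 30.4 and 100.1 CPM in chow livers, with a log2 fold change of -3.10 ± 0.64 (adjusted p = 0.0113). Its highest levels were in chow 3 (100.1 CPM) and chow 4 (74.2 CPM), which also held the most muscle transcripts. Chow 1, with a summed muscle level of only 36.1 CPM, had 27.1 CPM of Lpl. The levels in chow 6, chow 5 and chow 2 were 32.0, 28.8 and 9.81 CPM. Whether muscle transcripts account for the fall of Lpl was not tested. The adjusted p was 0.0582 without chow 3, and without chow 3, chow 4 and chow 5 the log2 fold change was -2.13 ± 0.89.

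Genes of bile acid synthesis and transport moved in both directions. Of 30 measured genes 5 rose and 2 fell, with a median log2 fold change of 0.37. Hsd3b7, which acts early in bile acid synthesis, had 695, 807 and 1147 CPM in OO livers, against 408, 500.0 and 518 CPM in chow livers. The groups did not overlap, and the log2 fold change was 0.82 ± 0.13 (adjusted p = 0.000962). Abcb11, the bile salt export pump, had 859, 1009 and 1477 CPM in OO livers, against 615, 685 and 833 CPM in chow livers. It rose by 0.59 ± 0.14 on the log2 scale (adjusted p = 0.0288) without overlap, and was called in 4 of 12 fits that leave out a library. Slc10a2, a sodium-dependent bile acid carrier best known from the ileum and bile ducts, had 28.4, 40.5 and 68.9 CPM in OO livers, against 2.52, 9.29 and 18.7 CPM in chow livers. Each OO liver was higher than each chow liver, and the log2 fold change was 2.07 ± 0.46 (adjusted p = 0.0179). Akr1c6, an aldo-keto reductase, rose by 0.64 ± 0.12 (adjusted p = 0.00622), and Slco1b2, an uptake carrier of the sinusoidal membrane, by 0.49 ± 0.12 (adjusted p = 0.0471). Slc10a2 was called in 9 and Slco1b2 in 3 of 12 fits that leave out a library, and Slco1b2 was not called under library totals (adjusted p = 0.234). The exporters of the sinusoidal side went the other way. Abcc3 had 121, 205 and 248 CPM in OO livers, against 291, 316 and 378 CPM in chow livers, with a log2 fold change of -0.72 ± 0.17 (adjusted p = 0.031). Abcc4 had 0, 0.123 and 0.599 CPM in OO livers, against 2.40, 5.22 and 18.4 CPM in chow livers (adjusted p = 0.0336). Both genes were lower in every OO liver than in any chow liver, and they were called in 6 and 3 of the 12 fits that leave out a library. Cyp7a1, the rate-limiting enzyme of bile acid synthesis, had 96.3, 146 and 202 CPM in OO livers, against 66.1, 229 and 279 CPM in chow livers. Its groups overlapped, chow 1 being the lowest liver of all (log2 fold change -0.47 ± 0.25, adjusted p = 0.484).

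**Figure D3:**
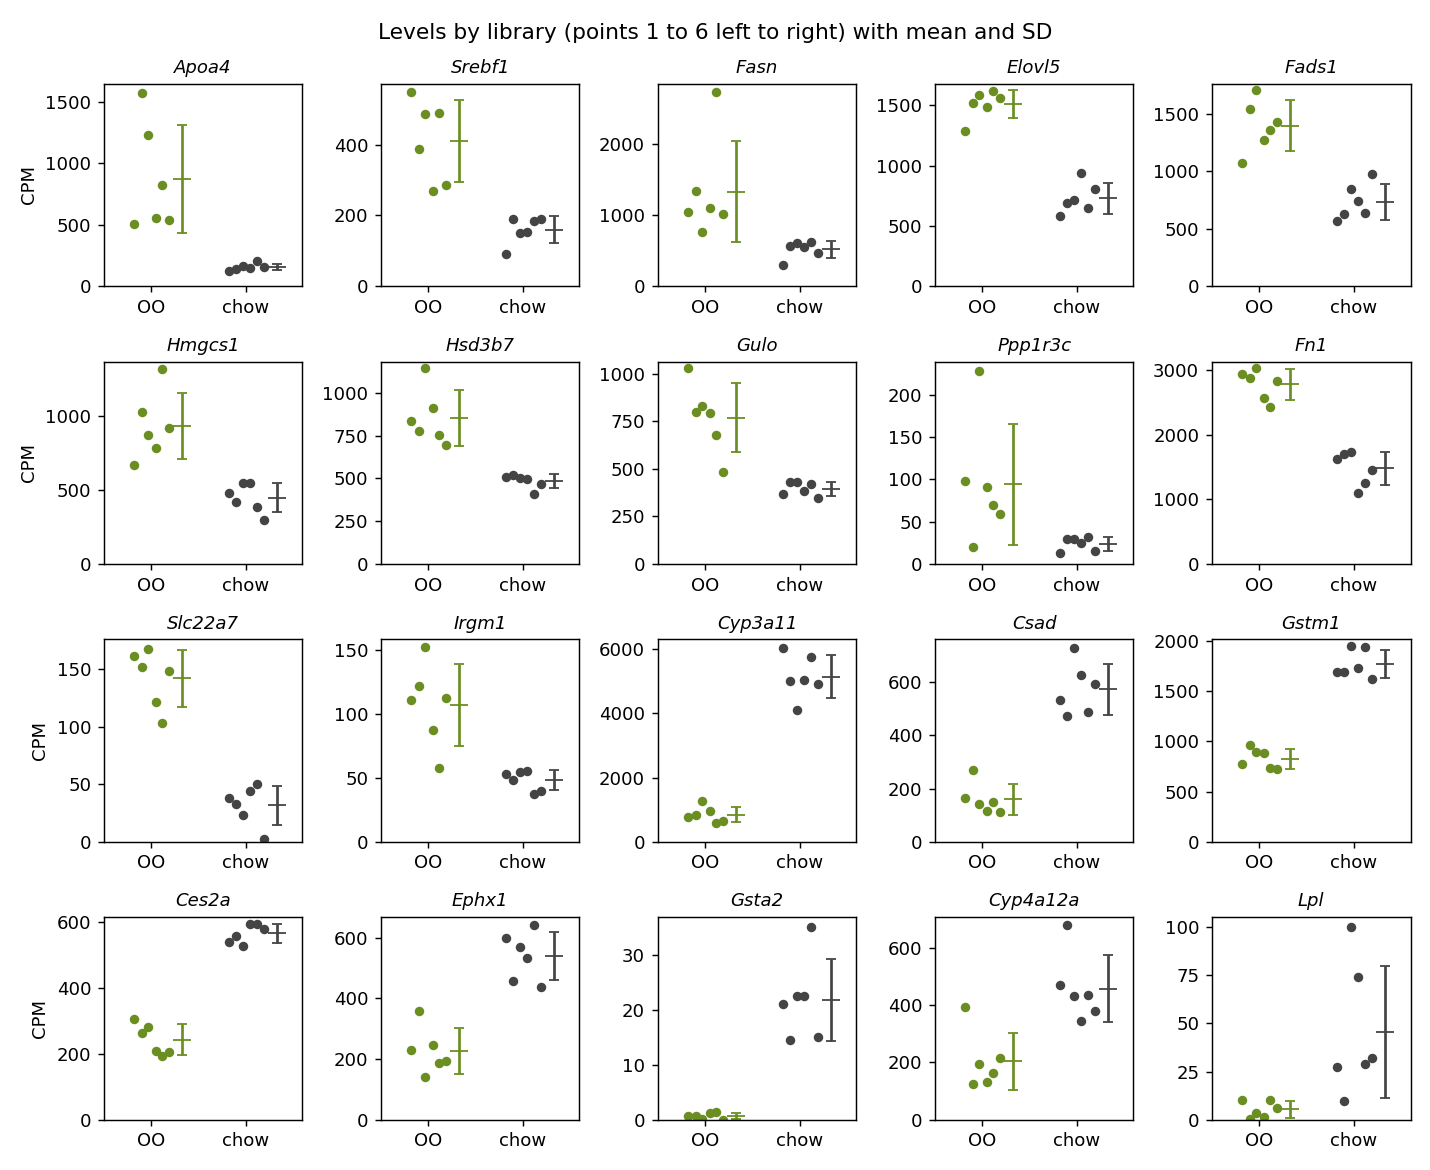
CPM of 20 genes, with OO livers (green) left of chow livers (grey), 1 point per library, and the mean with SD beside the points. Of these genes, Ppp1r3c, Cyp4a12a and Lpl overlap between the diets, and the other 17 do not.

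Several genes that clear foreign compounds fell. Of 33 measured genes of xenobiotic metabolism 6 fell and 1 rose, with a median log2 fold change of -0.11. Cyp3a11, a major drug-metabolising cytochrome P450 of mouse liver and a classical target of PXR, had 572, 808 and 1261 CPM in OO livers, against 4118, 5029 and 6036 CPM in chow livers. The highest OO liver was far below the lowest chow liver, and the log2 fold change was -2.60 ± 0.15 (adjusted p = 8.67e-12). Cyp3a44, a relative in the same gene cluster, had 0, 1.21 and 2.30 CPM in OO livers, against 16.1, 28.4 and 39.2 CPM in chow livers (log2 fold change -4.61 ± 0.77, adjusted p = 0.00125). Cyp2b10, a classical target of CAR, had no count in 5 OO libraries and 0.316 CPM in the library OO 4, where chow livers had 1.64, 3.40 and 8.73 CPM (adjusted p = 0.0314). It was called in 2 of 12 fits that leave out a library. Ces2a, a carboxylesterase, had 194, 236 and 305 CPM in OO livers, against 528, 567 and 594 CPM in chow livers. These groups were well apart, and the log2 fold change was -1.22 ± 0.14 (adjusted p = 1.03e-05). Cyp2a5, which oxidises coumarin and nicotine, fell by 1.11 ± 0.23 on the log2 scale (adjusted p = 0.0115). Cyp2c29 had 555, 759.6 and 950.5 CPM in OO livers, against 1122, 1248 and 1411 CPM in chow livers, with no overlap (log2 fold change -0.72 ± 0.13, adjusted p = 0.00398). Ugt1a9, a glucuronosyltransferase outside the list, had 0.253, 0.706 and 5.19 CPM in OO livers, against 17.6, 19.1 and 29.8 CPM in chow livers (log2 fold change -3.52 ± 0.76, adjusted p = 0.0152). Genes of its cluster share their 3′ exons, and members of the Cyp3a, Cyp2c, Ces2, Gstm and Gsta families share sequence, so their separate tag counts are uncertain. Sult1d1, a sulfotransferase, was the list's rise, with 101.9, 136 and 271 CPM in OO livers, against 69.2, 81.1 and 92.4 CPM in chow livers (log2 fold change 0.97 ± 0.24, adjusted p = 0.0409). It was called in 3 of 12 fits that leave out a library.

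NRF2 is a factor that answers oxidants and electrophiles. The list chosen for glutathione transferases and NRF2 targets showed 5 falls and no rise among its 28 measured genes. The median log2 fold change of the list was -0.23. Gstm1 had 723, 831 and 961 CPM in OO livers, against 1621, 1715 and 1955 CPM in chow livers. The diets were fully apart, and the log2 fold change was -1.10 ± 0.11 (adjusted p = 1.17e-06). Ephx1, microsomal epoxide hydrolase, had 141, 211 and 359 CPM in OO livers, against 437, 551 and 642 CPM in chow livers. It too did not overlap (log2 fold change -1.26 ± 0.18, adjusted p = 0.000287). Gsta2 was nearly absent from OO livers, with 0, 0.589 and 1.32 CPM, against 14.5, 21.8 and 35.03 CPM in chow livers (log2 fold change -5.06 ± 0.80, adjusted p = 0.000637). Gstm3 fell by 2.08 ± 0.43 on the log2 scale (adjusted p = 0.0113) and was not called without chow 5 (adjusted p = 0.0553). Gstp1 had 489.7, 583 and 1396 CPM in OO livers, against 1195, 1305 and 1362 CPM in chow livers (log2 fold change -0.89 ± 0.19, adjusted p = 0.0186). The overlap came from OO 1 alone, which was the highest of all 12 livers. Gclc, the catalytic subunit of the enzyme that starts glutathione synthesis, had 412, 573 and 698 CPM in OO livers, against 426, 556 and 584 CPM in chow livers (log2 fold change 0.09 ± 0.15, adjusted p = 0.866).

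The enzymes that make taurine moved in opposite directions. Cdo1, cysteine dioxygenase, had 1751, 1896 and 2458 CPM in OO livers, against 1205, 1377 and 1597 CPM in chow livers. It rose by 0.52 ± 0.11 on the log2 scale (adjusted p = 0.0167). Csad, which acts on the product of Cdo1, had 112, 146 and 269 CPM in OO livers, against 473, 561 and 729 CPM in chow livers, with a log2 fold change of -1.85 ± 0.19 (adjusted p = 1.17e-06). Neither gene overlapped between the diets. Of 21 measured genes of methionine, cysteine and taurine metabolism, 2 rose and 1 fell, and the other rise was that of Mat1a, which makes S-adenosylmethionine (log2 fold change 0.60 ± 0.12, adjusted p = 0.00985). Under library totals the rises were not called. Among 30 genes of amino acid catabolism and the urea cycle 3 rose (0 rises and 1 fall under library totals). They were Glud1, glutamate dehydrogenase (0.55 ± 0.12, adjusted p = 0.0127), Aldh4a1 of proline breakdown (0.62 ± 0.14, adjusted p = 0.0186) and Haao of tryptophan breakdown (0.63 ± 0.15, adjusted p = 0.0362). Haao was called in 5, Aldh4a1 in 9 and Cdo1 in 10 of 12 fits that leave out a library.

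Genes of glucose and glycogen metabolism gave 5 rises and no fall among 26 measured, with a median log2 fold change of 0.28. Ldha, lactate dehydrogenase, had 1005, 1214 and 1369 CPM in OO livers, against 647, 701 and 753 CPM in chow livers. The groups were apart (log2 fold change 0.76 ± 0.11, adjusted p = 0.00047). Of the genes of glycogen synthesis, Ppp1r3c, which brings a phosphatase to glycogen, had 19.9, 79.9 and 228 CPM in OO livers, against 12.4, 26.9 and 31.8 CPM in chow livers. OO 2 lay within the range of chow and OO 3 was the highest (log2 fold change 1.98 ± 0.41, adjusted p = 0.0115). Ugp2, which makes UDP-glucose, rose by 0.75 ± 0.17 (adjusted p = 0.0252), also with OO 3 highest, and Gbe1, the branching enzyme, by 0.96 ± 0.22 (adjusted p = 0.0257). Pcx, pyruvate carboxylase, rose by 0.64 ± 0.15 (adjusted p = 0.0247). Ugp2, Gbe1 and Pcx were called in 8, 7 and 7 of 12 fits that leave out a library, and library totals gave 2 rises and 1 fall in the list.

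In the lists of fatty acid breakdown that follow, no gene was called higher. Of 29 measured targets of PPAR alpha, the receptor that switches on fatty acid oxidation, none rose and 2 fell, with a median log2 fold change of -0.08. Cyp4a12a, a fatty acid hydroxylase that male mice express more than females, had 125, 179 and 393 CPM in OO livers, against 347, 434 and 679 CPM in chow livers (log2 fold change -1.16 ± 0.23, adjusted p = 0.00639). OO 1 alone reached into the range of chow. Pdk4, a kinase that shuts off pyruvate dehydrogenase, fell by 3.28 ± 0.73 on the log2 scale (adjusted p = 0.0246). Its highest levels were again in chow 4 (139 CPM) and chow 3 (92.4 CPM), and without chow 3, chow 4 and chow 5 the log2 fold change was -0.92 ± 1.04. Cyp4a14, another fatty acid hydroxylase, had 3.20, 58.0 and 176 CPM in OO livers, against 279, 349.6 and 523 CPM in chow livers. Acot1, an acyl-CoA thioesterase, had 0.799, 8.47 and 39.5 CPM in OO livers, against 42.5, 56.7 and 69.1 CPM in chow livers. All OO livers were below all chow livers for both genes, yet neither passed the test (Cyp4a14 -2.31 ± 0.76, adjusted p = 0.218; Acot1 -1.98 ± 0.55, adjusted p = 0.0674), and the OO livers differed widely among themselves. No overlap with OO below was seen for 67 genes (0.643% of those tested), and with OO above for 110 (1.06%). Of 22 genes of mitochondrial fatty acid oxidation and ketogenesis edgeR called none (5 had an unadjusted p under 0.05; DESeq2 called 1 and voom 0), and the median of 0.19 became -0.01 under library totals. Of 24 genes of triglyceride synthesis and lipid droplets edgeR called none (8 had an unadjusted p under 0.05; DESeq2 called 4 and voom 2). Plin2, a coat protein of lipid droplets, gave 0.15 ± 0.13 (adjusted p = 0.727), and Dgat2, which adds the last fatty acid to triglyceride, 0.57 ± 0.15 (adjusted p = 0.0664).

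Of 31 measured acute phase genes 8 rose and none fell, with a median log2 fold change of 0.42. Serpina3n, a protease inhibitor, had 296, 414 and 475 CPM in OO livers, against 167, 241 and 257 CPM in chow livers. The groups did not overlap (log2 fold change 0.79 ± 0.15, adjusted p = 0.00639). Hp, haptoglobin, had 2222, 3442 and 4293 CPM in OO livers, against 1955, 2061 and 2363 CPM in chow livers. Only OO 5 lay within the range of chow (log2 fold change 0.64 ± 0.13, adjusted p = 0.00803). Itih4 rose by 0.67 ± 0.13 (adjusted p = 0.00436). The fibrinogen chains Fgb, Fgg and Fga rose by 0.49 ± 0.10, 0.46 ± 0.10 and 0.42 ± 0.10 (adjusted p = 0.00963, 0.0166 and 0.0257) and also stand in the list of coagulation and fibrinolysis, of whose 23 measured genes 5 rose. Under library totals 3 acute phase genes and 0 coagulation genes were called. Fga was called in 7 and Fgg in 10 of 12 fits that leave out a library. Of 24 complement genes 2 rose, C4b (0.74 ± 0.13, adjusted p = 0.0028) and Serping1, the inhibitor of the first complement component (0.62 ± 0.13, adjusted p = 0.0113). Fn1, fibronectin, was named after its values were seen. It had 2426, 2855 and 3040.3 CPM in OO livers, against 1101, 1542 and 1734 CPM in chow livers, with no overlap (log2 fold change 0.91 ± 0.12, adjusted p = 3.88e-05). A positive log2 fold change was seen in 26 of 31 interferon response genes, with a median of 0.56, against 5908 of all 10419 tested genes. Only 1 of the 31 rose. It was Irgm1, a GTPase of defence against intracellular pathogens, with 57.8, 112 and 153 CPM in OO livers, against 37.1, 50.8 and 55.5 CPM in chow livers (log2 fold change 1.16 ± 0.26, adjusted p = 0.0202). Every OO liver was above every chow liver, and the call held in 9 of 12 fits that leave out a library. Hspa5, the main chaperone of the endoplasmic reticulum, was the single rise among 22 folding genes (0.67 ± 0.16, adjusted p = 0.0366; called in 5 of 12 fits that leave out a library), and of 12 genes of the integrated stress response edgeR called none (3 had an unadjusted p under 0.05; DESeq2 called 1 and voom 0).

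Among genes expressed mainly around the central vein, 4 of 20 rose. Gulo, the last enzyme of vitamin C synthesis, had 483, 798 and 1031 CPM in OO livers, against 345, 402 and 432 CPM in chow livers. Rgn, which acts just before Gulo, had 1212, 1396 and 1618 CPM in OO livers, against 669, 948 and 988 CPM in chow livers. Both were higher in every OO liver than in any chow liver, with log2 fold changes of 0.96 ± 0.15 (adjusted p = 0.000637) and 0.65 ± 0.12 (adjusted p = 0.0042). The other rises were Lect2, a secreted protein (1.34 ± 0.25, adjusted p = 0.00533), and Cyp2e1, which oxidises ethanol (0.58 ± 0.12, adjusted p = 0.0132). Of 20 periportal genes 2 rose, Apoa4 and Pigr, which carries immunoglobulin A into bile (0.54 ± 0.12, adjusted p = 0.0178; called in 9 of 12 fits that leave out a library).

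Carriers of organic ions gave 2 rises among 24. Slc22a7, which takes up organic anions, had 104, 150.1 and 168 CPM in OO livers, against 2.22, 35.6 and 49.9 CPM in chow livers. The groups were apart, with chow 6 the lowest (log2 fold change 2.16 ± 0.41, adjusted p = 0.00639). Slc13a3, a carrier of dicarboxylates, rose by 1.83 ± 0.45 (adjusted p = 0.0409) and was called in 4 of 12 fits that leave out a library. Of 11 genes of thyroid hormone handling 2 rose, Slco1b2 and Serpina7, thyroxine-binding globulin (1.98 ± 0.44, adjusted p = 0.0295), and neither was called under library totals. The largest rises outside the lists were those of Nat10 (1.72 ± 0.38), Snx25 (1.64 ± 0.40), Plscr2 (1.61 ± 0.39), Galnt4 (1.5 ± 0.36) and Pter (1.37 ± 0.24), each with no overlap between the diets. Their adjusted p-values lay between 0.00284 (Pter) and 0.0348 (Snx25). Pter was called in all 12 fits that leave out a library, Nat10 in 9, Galnt4 in 6, and Snx25 and Plscr2 in 4. Of the falls outside the lists, Nfia, a transcription factor, gave -1.15 ± 0.22 (adjusted p = 0.00622), Retsat, which saturates retinol, -0.74 ± 0.16 (adjusted p = 0.0132) and Tgoln1 of the Golgi -0.74 ± 0.18 (adjusted p = 0.0382). Tgoln1 was called in 3 of 12 fits that leave out a library, and Serpina7 in 7. Usp2, a deubiquitinase with a daily rhythm, was the single call among 21 clock genes. It had 2.60, 3.27 and 18.6 CPM in OO livers, against 15.3, 56.5 and 76.9 CPM in chow livers (log2 fold change -3.13 ± 0.54, adjusted p = 0.00216). OO 4 and chow 1 overlapped, and the median of the clock genes was -0.01. Of 28 growth hormone and sex-biased genes 1 fell, Cyp4a12a, and of 11 cell cycle genes edgeR called none (1 had an unadjusted p under 0.05; DESeq2 and voom called 1 each).

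Lists of large complexes showed negative medians with no gene called. A negative log2 fold change was seen in 4511 of all 10419 tested genes. Of 82 cytosolic ribosomal proteins 73 had a negative log2 fold change, with a median of -0.38, and of 78 respiratory chain subunits 59, with a median of -0.30. In edgeR's test none had an adjusted p under 0.05, and 8 of the ribosomal proteins and 5 of the subunits had an unadjusted p under 0.05. DESeq2 called 1 ribosomal protein and 0 subunits, and voom 0 of either. Library totals gave 1 fall among the ribosomal proteins and none among the subunits, as did leaving out OO 3.

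**Figure D4:**
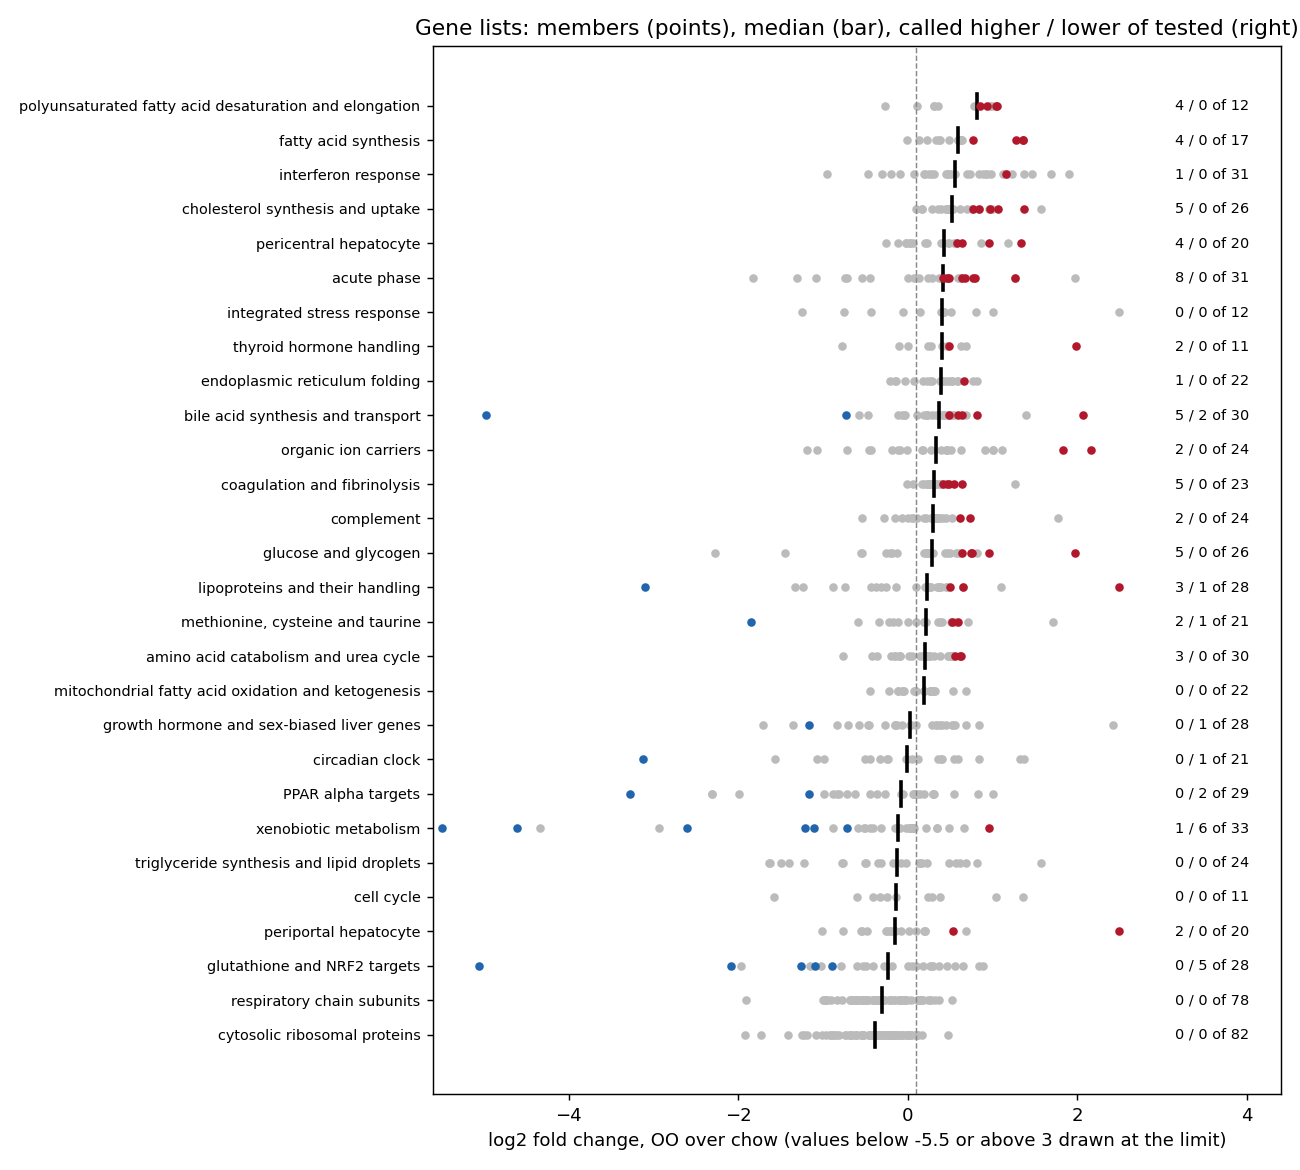
Log2 fold change of OO over chow for the members of each pathway list with at least 5 genes tested (points; red higher, blue lower, grey not called), with the list's median as a bar and the median of all genes, 0.09, as a dashed line. Counts at the right are genes called higher / lower of those tested. Lists of cell type markers are not drawn. Of the lists drawn, those of polyunsaturated fatty acids and of fatty acid synthesis lie at the top, and ribosomal proteins, with a median of -0.38, at the bottom.

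Markers of other cell types were looked at, since in whole liver fewer cells of a type and less RNA per cell cannot be told apart. Of the 36 skeletal muscle genes 9 passed the filter on low counts, and 1 was called, Ttn, the giant spring protein of muscle. It had 0.253, 1.05 and 4.17 CPM in OO livers, against 3.94, 147 and 816 CPM in chow livers, with chow 4, chow 3 and chow 5 the highest (log2 fold change -7.39 ± 1.35, adjusted p = 0.0291). Of 15 Kupffer cell, 15 endothelial, 15 stellate cell and matrix and 5 cholangiocyte genes edgeR, DESeq2 and voom called 0 (2, 4, 2 and 0 had an unadjusted p under 0.05). Not called by edgeR either were the 1 erythroid, 4 adipocyte and 1 exocrine pancreas gene that passed the filter. Markers of T and NK cells, B and plasma cells and neutrophils did not pass it, and their summed level was at most 7.68, 3.40 and 18.2 CPM in OO livers and 7.27, 10.8 and 4.66 CPM in chow livers.

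To see which changes set OO apart from the other oils, OO was compared with the mean of CSO and SFO, in a fit with no chow library. Of 11375 genes tested 105 (0.923%) differed, of which 84 (0.738%) were higher and 21 (0.185%) lower in OO. This comparison shares its OO libraries with the one against chow. Hsd3b7 had 689, 803 and 1155 CPM in OO livers, against 363, 400.4 and 471 CPM in CSO and 478, 503 and 667 CPM in SFO livers. OO was above both oils in every liver (log2 difference 0.88 ± 0.12, adjusted p = 3.72e-05). Abcb11 behaved likewise, with 863, 1003 and 1486 CPM in OO livers, against 418, 449 and 618 CPM in CSO and 479, 737 and 819 CPM in SFO livers (0.89 ± 0.13, adjusted p = 0.000127). Gclc, which was not called against chow, had 414, 571 and 696 CPM in OO livers, against 227, 261 and 346 CPM in CSO and 211, 266 and 298 CPM in SFO livers. Again no liver overlapped (1.08 ± 0.14, adjusted p = 1.36e-05). Cyp2c29, lower in OO livers than in chow livers, was higher in OO livers than in those of the other oils (0.75 ± 0.14, adjusted p = 0.00827). Ppp1r3c (2.11 ± 0.40, adjusted p = 0.0089), Ugp2 (0.71 ± 0.14, adjusted p = 0.00971), Cdo1 (0.56 ± 0.11, adjusted p = 0.0089) and Pter (1.04 ± 0.21, adjusted p = 0.0089) were higher in OO on both comparisons. Ppp1r3c in OO livers, at 20.0, 79.9 and 230 CPM, overlapped both oils. Its level was 7.07, 9.09 and 26.1 CPM in CSO livers and 10.3, 43.5 and 66.2 CPM in SFO livers. Usp2 was lower (-2.81 ± 0.64, adjusted p = 0.0384), but its level in SFO livers was 1.04, 8.12 and 56.4 CPM, against 63.3, 74.6 and 122.6 CPM in CSO livers.

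The leading changes against chow were not called against the other oils. The log2 difference was 0.22 ± 0.26 for Apoa4 (adjusted p = 0.755), 0.21 ± 0.25 for Cyp3a11 (adjusted p = 0.752) and -0.10 ± 0.19 for Csad (adjusted p = 0.846). It was -0.08 ± 0.12 for Fads2 (adjusted p = 0.805) and 0.27 ± 0.18 for Hmgcs1 (adjusted p = 0.535). Of the lipid synthesis genes, Elovl5 (0.47 ± 0.12, adjusted p = 0.0478) and Sc5d (0.54 ± 0.13, adjusted p = 0.0303) were higher in OO. Fasn (0.97 ± 0.25, adjusted p = 0.0699) and Scd1 (1.09 ± 0.25, adjusted p = 0.053) missed the threshold. The count of calls was 41 without OO 3 and 241 without OO 5, and 46, 67, 56, 62 and 65 without CSO 1, CSO 3, CSO 4, CSO 6 and SFO 3, so calls near the threshold depend on single libraries.

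**Figure D5:**
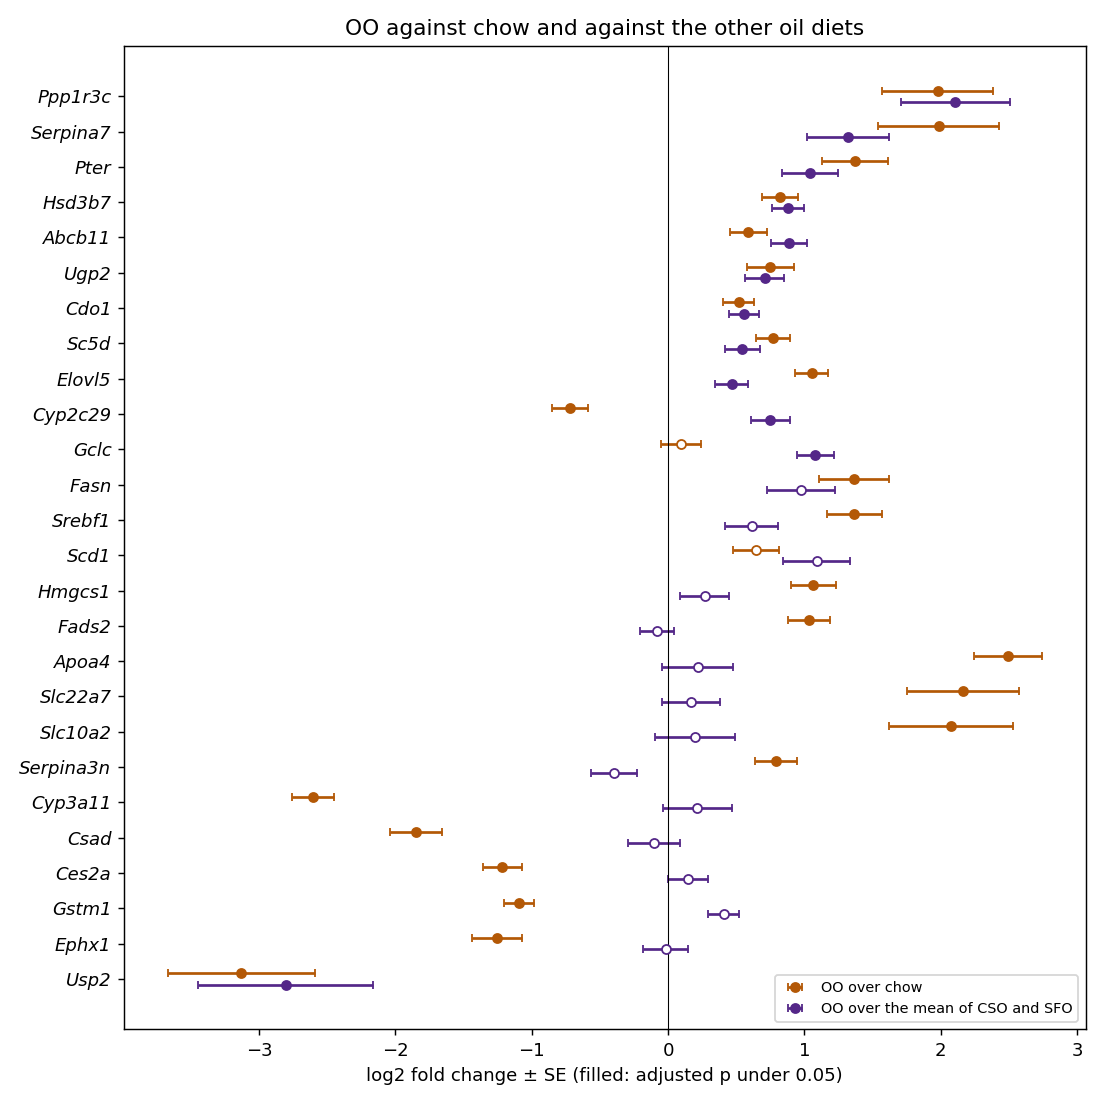
Log2 fold change ± SE of OO over chow (orange) and over the mean of CSO and SFO (purple) for 26 genes, filled where the adjusted p was under 0.05. Hsd3b7 and Abcb11 lie above 0 in both, Cyp3a11 and Csad lie below 0 against chow and near 0 against the other oils, and Cyp2c29 changes side.

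The authors' deposited table of OO and chow lists 683 genes at an adjusted p under 0.05, of which 352 were higher and 331 lower in OO. It holds 118 of the 122 genes called here, in the same direction, and 163 of its genes were not among those tested here.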

How the data were processed

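The deposited raw counts form 1 table of 13686 genes and 23 libraries, and the authors also deposited their own comparison of chow with OO. Per the submitters' processing notes, Trimmomatic, STAR 2.7.1a, HTSeq 0.9.1, DESeq2 and DESeq were used with the build mm39, and for strand a setting was not given in the sources used here. In the deposited comparison each gene has a mean signal, a log2 fold change with its SE, a Wald score, a raw p-value and an adjusted p-value. Its sign was turned, since its values run as chow over OO. SFO_4, which the submitters left out as an outlier with possible contamination, was not used here.

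The tests were run with edgeR 4.0.16 (R 4.3.3). The 6 OO and 6 chow libraries were filtered with filterByExpr, which left 10419 genes holding 99.6% of the counts, scaled by TMM, and tested with the robust quasi-likelihood F test. No other diet entered that fit, so the spread comes from the compared diets. OO was also tested against the mean of CSO and SFO over 17 oil libraries. CPM are counts relative to a library's TMM-scaled total within a fit. P-values were adjusted by Benjamini-Hochberg over all tested genes, with a threshold of 0.05. The members, gene lists and tests were chosen with earlier results of these data known. Named were the 12 largest rises and falls among called genes whose diets did not overlap and whose mean log2 CPM was at least 1, the 6 largest of OO against the other oils, up to 5 called members per list, and 20 genes of lipid metabolism and muscle. Fn1, Sult1d1, Cyp2b10, Abcc4, Slc25a4 and Tpm2 were named after their values were seen, and some genes that met the rule are not reported here.

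Replicate numbers were not used to pair the libraries in the main fits. Other settings were DESeq2 1.42.0, limma voom (3.58.1), other scalings and filters, all 4 diets in the fit, a replicate block and each library left out in turn; thinning to the shallowest library and leaving out chow 3, chow 4 and chow 5 were added after the data were seen. The scripts were tested on simulated data. For the figures, matplotlib 3.10.9 was used (Python 3.11.15).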

Additional observations from a re-analysis of the deposited data

Results flagged for a closer look

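Over 204 groups of 6 libraries examined, 23 held a library far from the rest of its group. The rule is set to flag about 1 in 20 groups by chance, a rate not measured on these data. Among OO livers, OO 3 was the high one for Pcx (1210 CPM), Ugp2 (875 CPM), Aldh4a1 (771 CPM) and Haao (919 CPM). OO 2 was high for Fads2 (2180 CPM) and Lss (221 CPM), OO 5 for Acly (813 CPM) and OO 4 for Usp2 (18.6 CPM) and Cyp2b10 (0.316 CPM). OO 1 was high for Hspa5 (1320 CPM) and Gstp1 (1400 CPM) and low for Elovl5 (1290 CPM). Among chow livers, chow 1 was low for Srebf1 (90.9 CPM) and Cyp7a1 (66.1 CPM) and high for Ugt1a9 (29.8 CPM). Chow 6 was low for Sqle (53.5 CPM), Rgn (669 CPM) and Slc22a7 (2.22 CPM) and high for Elovl2 (1320 CPM). Chow 4 was low for Abca1 (185 CPM) and Serpina3n (167 CPM), chow 2 for Slc13a3 (3.02 CPM), and chow 3 was high for Hp (2360 CPM).

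For 18 genes called against chow, the effect of OO differed from the mean effect of CSO and SFO in the test of that difference itself, by edgeR's quasi-likelihood test without chow libraries. The log2 differences of OO minus the mean of the other oils were 0.47 for Elovl5, 0.54 for Sc5d, 0.88 for Hsd3b7, 0.45 for Akr1c6, 0.89 for Abcb11 and 0.43 for Slco1b2. They were 0.45 for Rgn, 0.43 for Pigr, 2.11 for Ppp1r3c, 0.71 for Ugp2, 0.49 for Glud1, 0.53 for Haao and 0.56 for Cdo1. The remaining values were 1.32 for Serpina7, 2.0 for Snx25, 1.04 for Pter, 0.75 for Cyp2c29 and -2.81 for Usp2. Cyp2c29 is the one whose sign is opposite to that against chow.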

How the results depend on the processing

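Of the genes called, none had the opposite direction under the settings tried, among those tested in each (119 of 122 after thinning to the shallowest library and 104 or 105 of 105 without 1 oil library). The settings reuse all or most of the libraries on which the genes were called, so this agreement was largely fixed beforehand. The number of calls moved. Of OO against chow, 122 genes were called as reported, and 362 by DESeq2's Wald test (281 higher, 81 lower), with no filter 215 (90 lower), all 4 diets in the fit 316 (206 higher, 110 lower), library totals 84 (31 higher, 53 lower) and the fit without chow 3, chow 4 and chow 5 only 8 (4 higher, 4 lower). Leaving out 1 library in turn gave 65 to 200 calls (42 to 150 higher, 23 to 50 lower) and a difference of -1158 to -903 in detected genes. Of OO against the other oils, library totals gave 24 calls (15 higher, 9 lower), DESeq2 396 (228 higher, 168 lower), voom 35 (31 higher, 4 lower), no filter 159 (132 higher) and all 4 diets 285 (231 higher, 54 lower), against 105. Leaving out 1 library gave 41 to 241 (31 to 203 higher, 5 to 38 lower). Fits with libraries dropped hold fewer samples. Against chow, leaving out 1 OO library gave 125 to 200 calls, and leaving out 1 chow library 65 to 98. The cause of the moved counts was not tested. With a replicate block 159 genes were called against chow (50 lower) and 38 against the other oils (28 higher, 10 lower). Whether the numbers pair the libraries was not tested. The correlations of same-numbered OO and chow libraries were low, between -0.04 and 0.08. However, 4 of 6 OO libraries correlated best with the chow library of their own number. Medians of all genes moved by -0.18 under library totals, -0.13 under voom and -0.14 with the block. Of the 83 called genes followed singly, 39 lost the call in some fit without 1 library and 75 without chow 3, chow 4 and chow 5. Thinning to the shallowest library gave 120 calls against chow, and no greater depth could be tried.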
